A study of Mus musculus with 9 samples.

Results

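Raised GATA2 was compared with an empty vector in cultured mouse bone marrow cells, with 3 arrays in each group and 21072 transcript clusters, each a set of probes summed to 1 log2 signal per gene or locus. The 6 arrays, of 9 in the series, are those titled as GATA2 wild type or as empty vector, and no measured value was used to choose them. Both groups came from C57BL/6 female mice aged 8 weeks that had been given 5-fluorouracil, a drug that kills dividing cells, at 150 mg/kg 6 days before harvest. Per the sample protocols, marrow cells without lineage markers and with Sca and Kit were enriched on magnetic columns, infected with retrovirus on consecutive days and sorted for green fluorescent protein after 72 h. The control virus, MIE, carried the fluorescent protein alone, the other virus GATA2 wild type, and no deleted gene is named for either group. The remaining 3 arrays, of the variant R396Q, entered only the estimate of the spread. The labels do not tell whether replicates are separate mice, pools of mice or separate cultures, so p-values measure only the spread between these samples, which may be technical. The promoter that drives GATA2 in the virus is also not stated in the sources used here.

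GATA2 is a zinc finger protein that binds a short GATA sequence in promoters and enhancers of blood stem cells, progenitors, mast cells and megakaryocytes. Red cell precursors later exchange it for GATA1, which binds the same sequence. Neutrophil and monocyte genes depend on other factors, above all the ETS protein PU.1, which binds a purine-rich GGAA sequence. The comparison asks which genes differ when progenitors carry more GATA2.

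The Gata2 signal checks the labels. In order of replicate number, its log2 signals were 9.87, 9.67 and 9.65 with empty vector and 11.50, 11.24 and 10.94 with wild type. Every wild type array lay above every empty vector array, with a rise of 2.81-fold (1.49, SE 0.14, adjusted p = 0.0016). The SE here and below is that of the log2 change in limma over 3 arrays a group, and the Benjamini-Hochberg adjusted p counts all clusters, with 0.05 as the threshold for a call. Probes of the cluster can measure the gene of the cell and that of the virus together, and these were not separated.

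The label names the cells as hematopoietic stem cells, and the arrays held signal of several further cell types. Of 11 stem and progenitor markers measured, Kit and Cd34 were bright with empty vector, while Procr (5.10, 5.04 and 5.34) and Fgd5 (4.90, 4.90 and 4.81) lay below the median of each array (6.10 to 6.18). Esam lay below the median too, and Mecom lay above it only on empty vector 2. Meis1 (9.99, 10.49 and 10.11), Hlf, Slamf1, Flt3 and Cd48 lay above it on each array, and the list mean was 8.38 to 8.60. The mean of 17 neutrophil markers was 10.04 to 12.84 on the empty vector arrays, against an upper quartile of all clusters of 9.03 to 9.22. The mean of 14 lymphoid markers was 5.09 to 5.58, and that of 13 stromal and endothelial markers 5.84 to 5.97, both below the median of all clusters in each array. Cd3e, of T cells, had 4.17, 4.16 and 4.17 and Cdh5, of endothelium, 4.48, 4.44 and 4.47. Ly6a, which encodes Sca, was not analysed here.

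These marker levels moved with the virus and stand beside every gene group below. Over all 18797 genes 9.28% were called, 4.8% up and 4.47% down, and 17.6% with the replicate number as a block. The erythroid mean was 5.89 to 5.97 with empty vector and 7.56 to 8.78 with wild type, and 10 of 13 markers rose. The megakaryocyte mean was 7.98 to 8.71 and 10.43 to 11.27, with 9 of 12 up. For mast cells it was 7.99 to 9.15 and 9.87 to 10.90, with 6 of 13 up, and for basophils and eosinophils 7.42 to 8.74 and 9.52 to 11.54, with 5 of 13 up. The mast cell calls were Cpa3, Mcpt8, Ms4a2, Fcer1a, Hdc and Slc18a2, while Cma1, Tpsb2, Tpsab1, Mcpt4 and Mrgprb2 were not called. On the log2 scale Cma1 changed by -0.46, Mrgprb2 by -0.17, Tpsab1 by 0.04, Mcpt4 by 0.70 and Tpsb2 by 2.49. Tph1 (2.69) was called with the block. Whether the called members reflect mast cells or basophils was not tested. Mcpt8 stood in both lists, and the other calls of the second were Cd200r3, Il4, Il13 and Il6. The Cpa3 call was lost without each of the 9 arrays in turn (adjusted p of up to 0.133 in limma). The Mcpt8 call was lost without wild type 1 (0.0511), where the mast cell calls numbered 4. The eosinophil genes Epx, Prg2 and Prg3 were not called without the block. With the block Prg2 was called (adjusted p = 0.012 in limma), while Epx (0.0969) and Prg3 (0.0715) were not. Epx was 8.99, 6.26 and 5.86 with empty vector and 14.81, 14.02 and 7.24 with wild type. With the block the basophil and eosinophil count was 9, and without wild type 3 the megakaryocyte count was 5. In these 4 lists no member was called lower in the fit of 9 arrays without the block. The list means of the groups did not overlap. The mast cell marker Mitf, at 8.41, 7.59 and 8.24 with empty vector and 7.41, 7.25 and 7.48 with wild type, was not called, but was called lower with the block, with median subtraction, with quantile normalization, without the dimmest 50% and without empty vector 2. On the 6 arrays alone the erythroid rises numbered 6, the megakaryocyte rises 7, and the mast cell and the basophil and eosinophil rises 4 each, and on the 6 arrays with the block 5, 6, 4 and 3. The neutrophil mean went the other way, at 7.06 to 9.34 with wild type, where 5 of 17 markers fell (13 with the block) and 1, the chemokine receptor Cxcr2, rose. The Cxcr2 call was lost without wild type 1 (adjusted p = 0.0538 in limma). Without empty vector 1 the neutrophil calls numbered 3 in all, on the 6 arrays alone 3 fell and 0 rose, and on the 6 arrays with the block 7 fell and 0 rose. The monocyte and macrophage mean was 9.28 to 10.89 with empty vector and 7.07 to 7.88 with wild type, and 9 of 15 markers fell, against 5 without empty vector 1 or wild type 3, 4 without wild type 2, 3 on the 6 arrays alone and 5 on these with the block. Of 11 dendritic cell markers 3 fell and 1 rose, with 1 to 3 calls when 1 array was left out, 1 on the 6 arrays alone and 0 on these with the block. Of 13 stromal and endothelial markers Tek alone rose (7.69%, below the share over all genes). The Tek call was lost without any 1 of 6 arrays (empty vector 1, 2 and 3, wild type 1 and 3 and R396Q 1) and on the 6 arrays with the block. Of 14 lymphoid markers 0 passed the limma test with or without the block, and 0 without it had an unadjusted p under 0.05 (2 with it). Of 11 stem and progenitor markers Kit, Cd34, Flt3 and Cd48 fell and Slamf1 rose, with 3 calls in all without empty vector 1, wild type 1 or wild type 3 and 4 in both fits on the 6 arrays. Meis1 was 2.09-fold higher without overlap and was not called (adjusted p = 0.0569 in limma). With the block 2 rose and 5 fell, with Meis1 called higher (0.013) and Hlf lower (0.026). In bulk samples, fewer cells of a type and less RNA per cell cannot be told apart, and the part of these marker shifts in the results below was not tested.

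**Figure D1:**
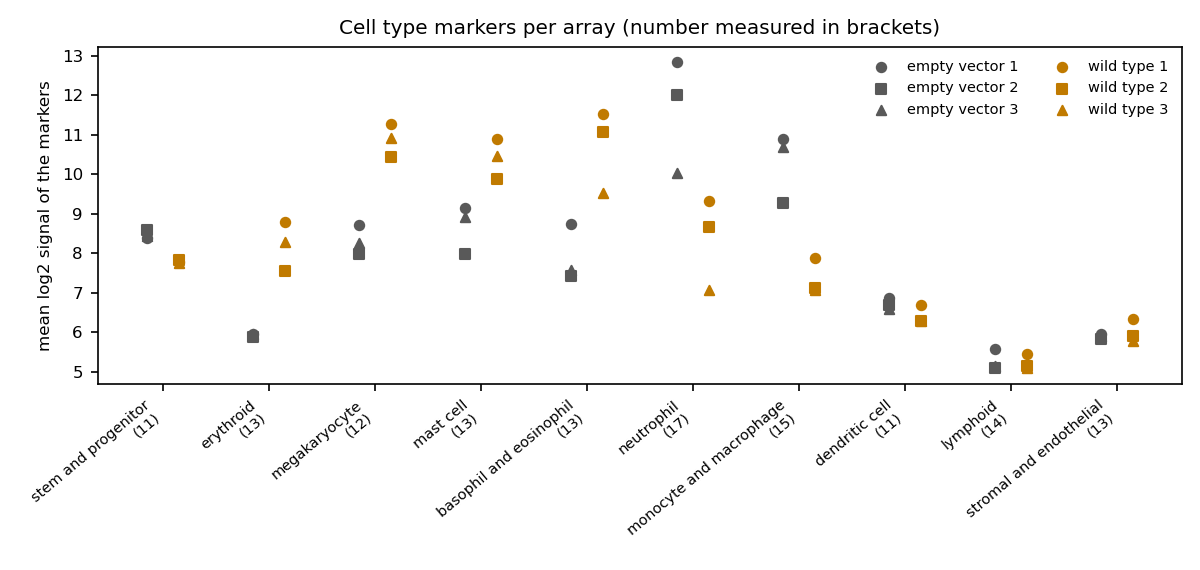
Mean log2 signal of each marker list on the 3 empty vector arrays (grey) and the 3 wild type arrays (orange), with the marker shape giving the replicate number and the number of markers measured in brackets. The erythroid, megakaryocyte, mast cell and basophil lists lie higher with wild type, the neutrophil and monocyte lists lower, and the lymphoid list lies between 5.09 and 5.58 in both groups.

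Calls from 0.58 to 2 on the log2 scale outnumbered those at either end of the range of sizes. Of 21072 clusters, 1894 were called (8.99%), 977 up (4.64%) and 917 down (4.35%), and with the replicate number as a block 3667 (17.4%), 1685 up (8%) and 1982 down (9.41%). On the 6 arrays alone 1026 were called, 528 up and 498 down, and on the 6 arrays with the block 1389. The groups did not overlap in 4769 clusters (22.6%), with wild type higher in 2279 (10.8%) and lower in 2490 (11.8%). Of the 1894 calls, 25.71% were under 0.58 on the log2 scale (1.495-fold), 28.51% from 0.58 to 1, 28.62% from 1 to 2, 10.19% from 2 to 3 and 6.97% at 3 or above. Within these classes the test called 2.63%, 40.33%, 64.52%, 81.78% and 88.0% of clusters. In the brightest quartile by the empty vector mean 286 clusters rose and 472 fell, in the next 386 rose and 355 fell, and in the second dimmest quartile 273 rose and 73 fell. The quartiles were cut on empty vector values, which also enter the change, so this tilt is partly set in advance. Of the 1894 calls, 941 were kept without any 1 of the 9 arrays, and 603 rather than 917 clusters fell without wild type 1.

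**Figure D2:**
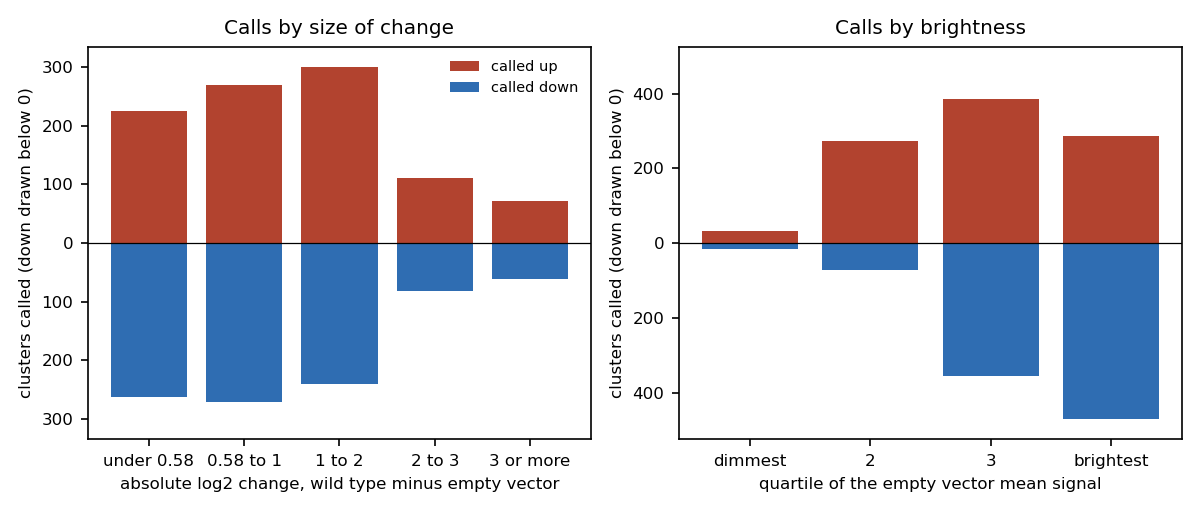
Number of clusters called up (red, above 0) and down (blue, below 0) by absolute log2 change and by quartile of the mean empty vector signal. Calls of 1 to 2 on the log2 scale numbered 301 up and 241 down, and the brightest quartile held 286 rises and 472 falls.

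Among rises of 0.58 to 3 on the log2 scale, the smallest p values included genes of the cytoskeleton, the cell cycle and heme synthesis. Genes of this class, of small changes and of bright level were taken only from calls without overlap, so their separation was set by the choice. Cttn encodes cortactin, which binds branched actin at the cell edge, and its log2 signals were 7.86, 7.98 and 7.80 with empty vector and 10.24, 10.16 and 10.33 with wild type. The groups lay far apart and each was tight, with a rise of 5.14-fold (2.36, SE 0.059, adjusted p = 2.19e-05). Its 3 R396Q values were equal, which narrows the SE, and the call was kept on the 6 arrays alone. Nckap1, a subunit of the WAVE complex that starts actin branches, had log2 signals of 6.88, 7.54 and 7.05 with empty vector and 9.93, 10.13 and 10.32 with wild type. It rose 7.81-fold (2.97, SE 0.17, adjusted p = 0.000298) with no overlap, and Usp6nl, a GTPase-activating protein of endosomal Rab proteins, rose 4.2-fold (2.07, SE 0.12). Rb1, the retinoblastoma protein that holds cells out of S phase, gave 11.04, 10.91 and 11.06 with empty vector and 12.66, 12.40 and 12.57 with wild type. All its wild type arrays exceeded all empty vector arrays, and it rose 2.91-fold (1.54, SE 0.076, adjusted p = 0.000182) from an already bright level. Slc9a3r1, an adaptor that ties membrane proteins to ezrin, rose 2.81-fold (1.49, SE 0.085), with log2 signals of 11.57, 11.32 and 11.54 with empty vector and 13.01, 12.89 and 12.998 with wild type.

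Asb2 is a subunit of a ubiquitin ligase that degrades filamins. It had log2 signals of 5.63, 5.34 and 5.34 with empty vector and 8.22, 8.09 and 8.45 with wild type, with the groups apart, and rose 7.06-fold (2.82, SE 0.12, adjusted p = 0.00011). Cpox, an enzyme of heme synthesis, rose 7.72-fold (2.95, SE 0.099), the zinc finger gene Zfp667 4.68-fold (2.23, SE 0.13), the fibroblast growth factor receptor-like gene Fgfrl1 2.34-fold (1.23, SE 0.075) and the protease inhibitor Serpina3n 2.25-fold (1.17, SE 0.068). Cd9-ps, listed as a pseudogene of the tetraspanin gene Cd9, rose 6.18-fold (2.63, SE 0.16), and its probes may share sequence with Cd9. Nepn rose 4.92-fold (2.30, SE 0.088), from an empty vector mean (4.24) under the lower quartile of every array, too dim to be told from background here.

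Falls of the same size class included the receptor genes Kit and P2ry2, the phosphatase gene Ptprc and the ubiquitin ligase gene Spop. Kit, the receptor for stem cell factor, had log2 signals of 12.22, 12.22 and 12.38 with empty vector and 9.50, 9.42 and 9.46 with wild type. The 3 arrays of each group lay within a narrow band and Kit fell 7.02-fold (-2.81, SE 0.076, adjusted p = 2.19e-05). Ptprc, the CD45 phosphatase that sets the activity of Src family kinases, gave 12.07, 11.99 and 12.02 with empty vector and 10.41, 10.24 and 10.25 with wild type. It fell 3.31-fold (-1.73, SE 0.076, adjusted p = 0.000121), with the groups well apart. Spop, which brings substrates to the cullin 3 ubiquitin ligase, showed a small and tight difference, with 12.29, 12.27 and 12.28 with empty vector and 11.42, 11.42 and 11.40 with wild type. The fall was 1.82-fold (-0.86, SE 0.031, adjusted p = 6.58e-05). P2ry2, a receptor for extracellular ATP and UTP, had 11.09, 10.82 and 11.17 with empty vector and 8.57, 8.31 and 8.69 with wild type, and fell 5.65-fold (-2.50, SE 0.12, adjusted p = 0.00018) without overlap.

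Arhgef6, an exchange factor for Rac and Cdc42, had log2 signals of 9.74, 9.99 and 10.15 with empty vector and 7.60, 7.64 and 7.67 with wild type. The wild type arrays lay close together and below, a fall of 5.01-fold (-2.32, SE 0.093, adjusted p = 7.83e-05). Arhgap31, which switches Rac and Cdc42 off, fell 4.53-fold (-2.18, SE 0.13), the tyrosine kinase gene Fes 2.51-fold (-1.33, SE 0.079) and the receptor kinase adaptor gene Sh2b2 5.52-fold (-2.46, SE 0.14). Nrros, which holds latent TGF beta on myeloid cells, fell 3.25-fold (-1.70, SE 0.083). Ggct, an enzyme of glutathione breakdown, fell 2.21-fold (-1.14, SE 0.058), Sash1 1.71-fold (-0.78, SE 0.041) and Rpp40, a subunit of RNase P, 2.19-fold (-1.13, SE 0.063).

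Changes under 0.58 on the log2 scale also passed the test where the arrays of a group agreed closely. Notch3, a Notch receptor, had log2 signals of 5.61, 5.64 and 5.57 with empty vector and 6.05, 6.12 and 6.13 with wild type. The groups did not overlap and the rise was 1.41-fold (0.49, SE 0.033, adjusted p = 0.000442), at a level below the median of all clusters. Polk, a DNA polymerase that copies past damaged bases, gave 8.65, 8.56 and 8.52 with empty vector and 9.08, 9.06 and 9.10 with wild type, and Tent5c, a poly(A) polymerase, 6.18, 6.005 and 6.15 with empty vector and 6.68, 6.62 and 6.64 with wild type. They rose 1.42-fold (0.51, SE 0.042) and 1.45-fold (0.54, SE 0.052), with every wild type array above. Oser1, an oxidative stress response gene, had 8.40, 8.38 and 8.39 with empty vector and 7.93, 7.97 and 7.98 with wild type, and fell 1.34-fold (-0.43, SE 0.034). Mapk1ip1l had 12.99, 13.05 and 13.07 with empty vector and 12.63, 12.61 and 12.65 with wild type, and fell 1.33-fold (-0.41, SE 0.04) with no overlap at a bright level. The polarity gene Llgl2 rose 1.41-fold (0.50, SE 0.044) and Ralgapa2, a subunit of the complex that switches off Ral, 1.27-fold (0.34, SE 0.038). Prmt6, which methylates arginine on histone H3, fell 1.42-fold (-0.51, SE 0.052), Naa50, an N-terminal acetyltransferase, 1.38-fold (-0.47, SE 0.051) and Acvrl1, a receptor of the bone morphogenetic protein family, 1.15-fold (-0.21, SE 0.024). The Naa50 and Acvrl1 calls were lost in a fit on the 6 arrays with the replicate block (adjusted p of up to 0.0595).

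**Figure D3:**
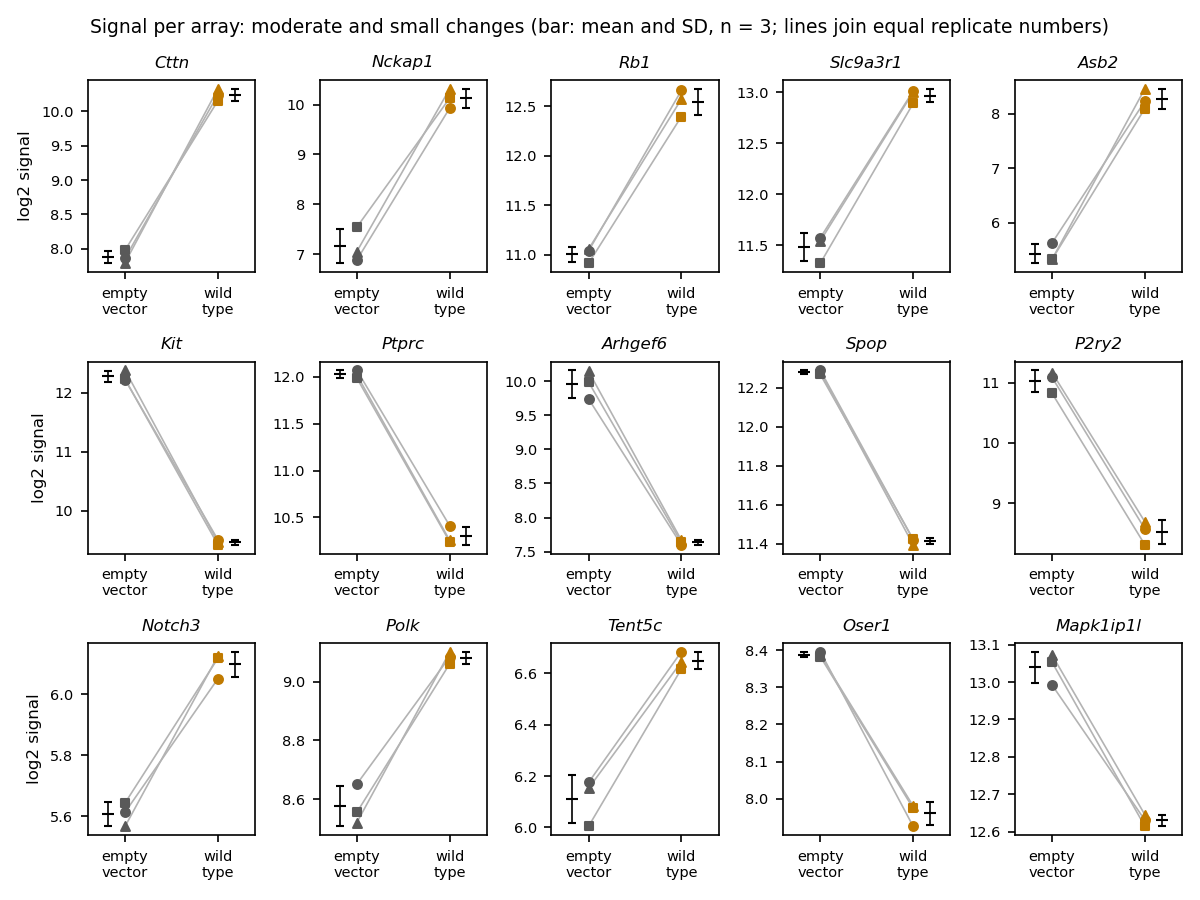
Log2 signal per array of 15 genes with moderate or small changes, with empty vector in grey, wild type in orange, lines between arrays of the same replicate number, and the mean and SD of 3 arrays beside the points. The groups do not overlap in any panel, which was a condition for choosing these genes. Each panel has its own axis, which does not start at 0, so heights cannot be compared between panels.

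Among genes already bright with empty vector (mean above 9.1366, the upper quartile of all clusters), the largest rises were of regulators and enzymes of several lineages. Gfi1b, a repressor needed by red cell and megakaryocyte precursors, had log2 signals of 9.12, 9.10 and 9.71 with empty vector and 14.01, 13.02 and 13.67 with wild type, and rose 19.1-fold (4.26, SE 0.29, adjusted p = 0.000466). The lowest wild type array was above the highest empty vector array by several log2 units. Prkca, a protein kinase C, rose 14.2-fold (3.83, SE 0.19), and the adaptor gene Lat, which links receptors of T cells, mast cells and platelets to phospholipase C, 13.7-fold (3.77, SE 0.43). Cyp11a1, which makes pregnenolone from cholesterol and is active in mast cells and basophils, rose 12.6-fold (3.65, SE 0.58), and Alox5, which starts leukotriene synthesis, 9.29-fold (3.22, SE 0.35). The complement inhibitor gene Cd55 rose 15.3-fold (3.93, SE 0.57), hepatocyte growth factor, Hgf, 11.3-fold (3.49, SE 0.23), and the urea channel gene Slc14a1 9.13-fold (3.19, SE 0.22).

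The largest falls from a bright level included an ADP-ribosyltransferase and an adhesion receptor. Parp8 encodes a mono-ADP-ribosyltransferase and had log2 signals of 12.10, 11.84 and 11.73 with empty vector and 6.75, 6.32 and 6.29 with wild type. It fell 43.4-fold (-5.44, SE 0.24, adjusted p = 0.000121) with no overlap. Adgrl4, an adhesion G protein-coupled receptor known from vessels, gave 11.59, 10.93 and 10.40 with empty vector and 6.25, 5.61 and 4.91 with wild type, and fell 41.7-fold (-5.38, SE 0.62, adjusted p = 0.00331), again with the groups apart. Tfec, a relative of Mitf in the myeloid lineage, fell 48.3-fold (-5.59, SE 0.32), and Trem3, a receptor of myeloid cells, 49.4-fold (-5.63, SE 0.61). B4galt6, which makes lactosylceramide, fell 47.6-fold (-5.57, SE 1.04). The B4galt6 call was lost without empty vector 1, empty vector 2, wild type 2 or wild type 3 (adjusted p of up to 0.0697).

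Promoter sequence was set beside the direction of change. Of 18049 genes with a single identifier, 13920 matched a promoter window in RefSeq (assembly GRCm38.p6), 250 bases before to 50 after the start, with the first listed window used for each gene, and windows were searched on both strands. AGATAA or TGATAA, forms of the GATA sequence, stood in 14.8% of all 13920 windows of 300 bases, in 16.1% of 697 windows of genes that rose and 11.5% of 687 of genes that fell, and in 18.2% and 12.3% of the genes that did so more than 2-fold. GAGGAAG, a form of the PU.1 sequence, stood in 13% of all windows, in 16.1% of the rises and 19.5% of the falls, and in 18.5% and 24.9% beyond 2-fold. CCACACCC, a form of the sequence of Kruppel-like factors, stood in 3.75% of all, 4.45% of the rises and 3.64% of the falls, and TTNCNNAA, a loose form of the C/EBP sequence, in 36.2%, 33.9% and 34.4%. Matches of different motifs may share bases, these shares carry no test, and a match is not shown to be bound.

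The 130 bases just before the start of 8 called genes are shown so that the motif can be seen in place, 5 that rose with AGATAA or TGATAA in capitals, then 3 that fell with GAGGAAG in capitals, on either strand, so that a match on the opposite strand appears as its reverse complement. They were chosen after their values were seen, each is read 5′ to 3′ along its gene, and coordinates are those of RefSeq on GRCm38.p6. Klf1 is the main erythroid transcription factor, Gfi1b the repressor named above, Icam4 a red cell adhesion protein, Cpox the heme enzyme and Pfkm a phosphofructokinase. Clec5a is a myeloid lectin receptor, Csf3r the receptor that G-CSF acts on and Elane neutrophil elastase.
Klf1 (chr8:84901852-84901981, plus strand): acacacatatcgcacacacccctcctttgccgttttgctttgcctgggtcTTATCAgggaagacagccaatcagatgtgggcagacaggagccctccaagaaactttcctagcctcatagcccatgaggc
Gfi1b (chr2:28621983-28622112, minus strand): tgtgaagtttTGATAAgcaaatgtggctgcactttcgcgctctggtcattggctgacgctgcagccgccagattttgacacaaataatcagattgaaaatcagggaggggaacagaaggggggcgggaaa
Icam4 (chr9:21029302-21029431, plus strand): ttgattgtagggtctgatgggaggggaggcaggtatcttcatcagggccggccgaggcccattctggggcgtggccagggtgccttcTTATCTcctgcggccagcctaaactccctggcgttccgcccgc
Cpox (chr16:58670078-58670207, plus strand): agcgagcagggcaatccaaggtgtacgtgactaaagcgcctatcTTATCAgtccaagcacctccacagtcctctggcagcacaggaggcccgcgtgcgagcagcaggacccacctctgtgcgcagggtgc
Pfkm (chr15:98092459-98092588, plus strand): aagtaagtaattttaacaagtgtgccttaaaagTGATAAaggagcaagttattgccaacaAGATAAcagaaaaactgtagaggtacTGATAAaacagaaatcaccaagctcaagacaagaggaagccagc
Clec5a (chr6:40585806-40585935, minus strand): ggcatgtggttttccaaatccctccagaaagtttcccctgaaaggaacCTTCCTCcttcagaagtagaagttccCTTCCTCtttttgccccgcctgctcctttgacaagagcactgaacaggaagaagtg
Csf3r (chr4:126024529-126024658, plus strand): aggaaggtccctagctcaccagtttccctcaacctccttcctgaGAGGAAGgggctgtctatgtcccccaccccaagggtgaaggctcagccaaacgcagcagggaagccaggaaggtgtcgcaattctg
Elane (chr10:79886182-79886311, plus strand): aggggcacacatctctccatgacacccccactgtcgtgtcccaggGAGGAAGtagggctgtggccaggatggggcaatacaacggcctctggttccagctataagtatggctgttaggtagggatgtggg
The Pfkm stretch holds 3 marked matches and the Clec5a stretch 2. Only the motif named for the direction is in capitals, and the Pfkm stretch also holds GAGGAAG, in small letters near its end. Log2 signals were 6.12, 5.49 and 5.73 with empty vector and 11.34, 9.86 and 10.27 with wild type for Klf1, a rise of 26.2-fold (4.71, SE 0.40), and 6.98, 6.85 and 6.97 with empty vector and 11.10, 10.98 and 10.44 with wild type for Icam4, a rise of 3.91 on the log2 scale (SE 0.20). Clec5a had 12.76, 12.64 and 13.11 with empty vector and 6.15, 5.13 and 6.07 with wild type, a fall of 133.0-fold (-7.05, SE 0.28), and Csf3r 11.46, 11.39 and 10.96 with empty vector and 6.17, 5.68 and 6.05 with wild type, a fall of 39.4-fold (-5.30, SE 0.39). In each of these 4 genes the groups were apart. Elane fell 52.4-fold (-5.71, SE 1.34). The Elane call was lost without empty vector 1, empty vector 2, empty vector 3, wild type 1, wild type 2, wild type 3, R396Q 1 or R396Q 2, in the fits on the 6 arrays with and without the replicate block and with array weights (adjusted p of up to 0.121).

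The remaining results follow 46 lists of genes by function, 1495 distinct genes measured in all, of which 335 were called (22.4%), 174 up and 161 down, against 9.28% of 18797 genes (4.8% up and 4.47% down). With the block 563 were called, against 17.6% of all genes (8.1% up and 9.5% down), without empty vector 1 the count was 211, on the 6 arrays alone 189 and on these with the block 237. The median change over all genes was -0.01 and the median absolute change 0.12. A median near 0 with a large median absolute change is therefore a list whose members moved in both directions, and 40 of the 46 lists had calls in both. Near or below the share of all genes were translation factors (9.38%), AP-1 factors (8.33%), red cell proteasome genes (7.41%) and mitochondrial respiration (6.9%). Little higher, at 11.1% to 12.8%, were histones, semaphorins and related genes, MHC class II, nuclear receptors and Wnt, Notch and hedgehog genes. Counts in these lists are not read as a change of the list. The lists are not a random draw of genes, and many of their members are bright.

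**Figure D4:**
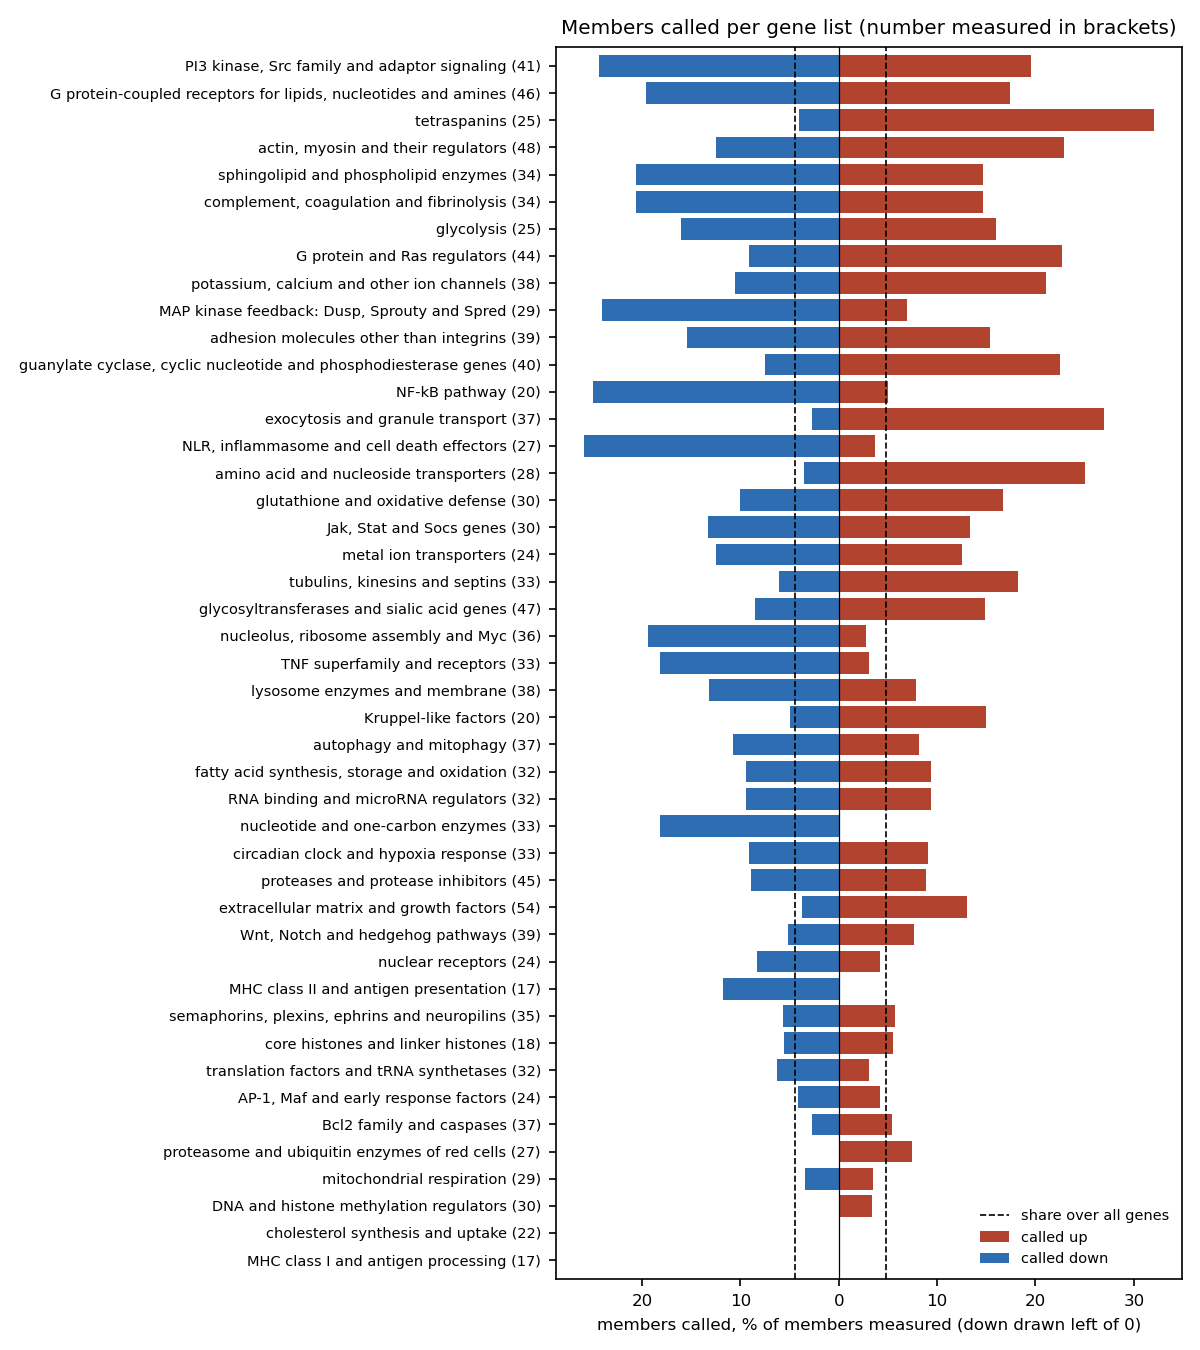
Share of the measured members of each of 45 of the 46 gene lists that was called up (red, to the right) or down (blue, to the left) with wild type, with dashed lines at the shares over all 18797 genes (4.8% and 4.47%). The highest share in all was 43.9%, and 2 lists had no call.

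In the fit of 9 arrays without the block, PI3 kinase, Src family and adaptor signaling held the highest share of calls among the 46 lists. This rank was not kept with the block, where 21 of these 41 genes and 15 of 25 tetraspanins were called. Nor was it kept on the 6 arrays alone (11 of 41 and 7 of 25). Of 41 genes of PI3 kinase, Src family and adaptor signaling, 8 rose and 10 fell (43.9%, median -0.05, median absolute change 0.54), and 11 to 16 were called with 1 array left out (11 without empty vector 1), against 5 up and 6 down on the 6 arrays alone, 6 up and 4 down on the 6 arrays with the block. Lat had log2 signals of 10.55, 9.41 and 11.18 with empty vector and 14.09, 14.06 and 14.31 with wild type, a rise without overlap given above. Sh3bp2, an adaptor of Abl and Syk family kinases, fell 2.12-fold (-1.09, SE 0.082, adjusted p = 0.000654), Pik3ap1, which brings PI3 kinase to B cell and Toll-like receptors, 7.09-fold (-2.83, SE 0.28, adjusted p = 0.00195) and Pag1, which holds the Src inhibitor Csk at the membrane, 2.24-fold (-1.17, SE 0.12, adjusted p = 0.00235). Of 30 Jak, Stat and Socs genes, 4 rose and 4 fell, and 5 to 8 were called with 1 array left out (5 without empty vector 1), against 2 up and 3 down on the 6 arrays alone, 1 up and 4 down on the 6 arrays with the block. Jak2, the kinase of the erythropoietin and thrombopoietin receptors, had log2 signals of 10.57, 10.65 and 10.23 with empty vector and 12.51, 12.18 and 11.81 with wild type. It rose 3.21-fold (1.68, SE 0.19, adjusted p = 0.00323) with no overlap, and Ptpn1, a phosphatase that acts on Jak2, fell 1.89-fold (-0.92, SE 0.13). Socs1, a feedback inhibitor of Jak kinases, rose 1.71-fold (0.77, SE 0.12). The Socs1 call was lost in the fits on the 6 arrays with and without the replicate block (adjusted p of up to 0.064).

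In the list of MAP kinase feedback and related genes more members fell than rose. Its called members included the kinase genes Mapk13 and Mapkapk3, whose calls were lost on the 6 arrays alone. Of 29 Dusp, Sprouty, Spred and related genes 7 fell and 2 rose (median -0.29), and 4 to 8 were called with 1 array left out (4 without empty vector 1), against 1 up and 2 down on the 6 arrays alone, 1 up and 4 down on the 6 arrays with the block. Dusp7, a phosphatase of ERK, fell 2.4-fold (-1.27, SE 0.093, adjusted p = 0.00061), and Phlda1 rose 1.77-fold (0.82, SE 0.12, adjusted p = 0.00768). Of 44 regulators of G proteins and Ras, 10 rose and 4 fell, and 10 to 15 were called with 1 array left out, against 6 up and 2 down on the 6 arrays alone. Rap1b, the small GTPase that activates platelet integrins, rose 1.54-fold (0.62, SE 0.047, adjusted p = 0.00064), the G protein subunit gene Gnb4 4.85-fold (2.28, SE 0.24) and Rasal3, a Ras GTPase-activating protein, 2.18-fold (1.12, SE 0.11). Rasgrp2, the exchange factor for Rap1 in platelets, went the other way and fell 1.98-fold (-0.98, SE 0.11, adjusted p = 0.00341), with log2 signals of 8.97, 8.88 and 8.63 with empty vector and 7.92, 7.89 and 7.72 with wild type. Rgs19 fell 1.85-fold (-0.89, SE 0.093).

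Among receptors for nucleotides, lipids and amines, members of the same family moved in opposite directions. Of 46 measured, 8 rose and 9 fell (37%, median -0.04, median absolute change 0.60), and 10 to 15 were called with 1 array left out (10 without empty vector 3, 11 without R396Q 1 or wild type 2), against 5 up and 5 down on the 6 arrays alone, 6 up and 4 down on the 6 arrays with the block. P2ry1, the ADP receptor that starts platelet shape change, had log2 signals of 7.24, 7.03 and 7.41 with empty vector and 9.91, 9.74 and 10.07 with wild type. Each wild type array lay above each empty vector array and P2ry1 rose 6.42-fold (2.68, SE 0.26, adjusted p = 0.00168), whereas P2ry2 fell as given above and P2ry13, another ADP receptor, fell 5.36-fold (-2.42, SE 0.24). Ptger3, a prostaglandin E2 receptor, rose 3.99-fold (1.995, SE 0.20), and Gpr65, which senses protons, fell by 3.58 on the log2 scale (SE 0.33). The P2ry13 call was lost in a fit on the 6 arrays with the replicate block (adjusted p = 0.0558). Of 38 ion channel genes 8 rose and 4 fell, and 8 to 12 were called with 1 array left out, against 4 up and 1 down on the 6 arrays with the block. P2rx1, the ATP-gated channel of platelets, rose 9.69-fold (3.28, SE 0.29, adjusted p = 0.00124) and Itpr2, a calcium release channel of the endoplasmic reticulum, 4.38-fold (2.13, SE 0.20, adjusted p = 0.00163), while Atp2b1, a calcium pump of the plasma membrane, fell 2.07-fold (-1.05, SE 0.17, adjusted p = 0.0112).

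More genes of cyclic nucleotide signaling rose than fell. Of 40 guanylate and adenylate cyclase, protein kinase A and phosphodiesterase genes, 9 rose and 3 fell, and 7 to 11 were called with 1 array left out (7 without empty vector 1 or wild type 1), against 14 up and 5 down with the replicate block, 5 up and 2 down on the 6 arrays alone, 5 up and 0 down on the 6 arrays with the block. Gucy1b1, a subunit of the nitric oxide receptor, had log2 signals of 5.30, 5.15 and 5.55 with empty vector and 7.69, 7.59 and 8.70 with wild type. The wild type arrays were all higher and the rise was 6.32-fold (2.66, SE 0.29, adjusted p = 0.00272). Prkar2b, a regulatory subunit of protein kinase A, rose 3.1-fold (1.63, SE 0.18), Pde3a, the phosphodiesterase of platelets, 2.15-fold (1.11, SE 0.16) and Crem, a transcription factor of the cAMP response, 1.75-fold (0.81, SE 0.097). Adcy6, an adenylate cyclase, rose 4.35-fold (2.12, SE 0.24). The Adcy6 call was lost in a fit on the 6 arrays with the replicate block (adjusted p = 0.051).

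Cytoskeletal genes also held opposite changes within a family. Of 48 genes of actin, myosin and their regulators 11 rose and 6 fell (35.4%, median 0.04), and 10 to 15 were called with 1 array left out (10 without empty vector 1, 11 without empty vector 2), against 6 up and 4 down on the 6 arrays with the block. Within the formins, which nucleate straight actin filaments, Diaph1 had log2 signals of 11.11, 11.17 and 11.40 with empty vector and 12.10, 12.29 and 12.28 with wild type and Diaph2 11.37, 11.47 and 11.50 with empty vector and 10.08, 9.98 and 9.96 with wild type. Diaph1 rose 2.0-fold (0.998, SE 0.095, adjusted p = 0.00165) and Diaph2 fell 2.71-fold (-1.44, SE 0.094, adjusted p = 0.000393), each without overlap, and Fmnl2 fell 3.72-fold (-1.89, SE 0.15). Tmod1, which caps actin in the red cell membrane skeleton, rose 4.14-fold (2.05, SE 0.15), and the myosin gene Myo1d 24.6-fold (4.62, SE 0.30). Of 33 tubulin, kinesin and septin genes 6 rose and 2 fell, and 4 to 6 were called with 1 array left out (4 without empty vector 1, empty vector 2, empty vector 3, wild type 1 or wild type 2), against 8 up and 5 down with the replicate block, 3 up and 0 down on the 6 arrays alone, 3 up and 1 down on the 6 arrays with the block. Septin8 and Septin4 rose 6.37-fold (2.67, SE 0.19) and 1.72-fold (0.78, SE 0.069), and Tuba8 2.09-fold (1.06, SE 0.15). The Tuba8 call was lost in a fit on the 6 arrays with the replicate block (adjusted p = 0.0766).

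Surface and granule genes that rose were more numerous than those that fell in the tetraspanin and exocytosis lists. Of 25 tetraspanins 8 rose and 1 fell (36%, median 0.46), and 5 to 8 were called with 1 array left out (5 without empty vector 3), against 11 up and 4 down with the replicate block. Cd9, abundant on platelets, rose 4.29-fold (2.10, SE 0.23, adjusted p = 0.0028), Tspan33, of red cell precursors, 26.2-fold (4.71, SE 0.37, adjusted p = 0.00078) and Tspan18 1.57-fold (0.65, SE 0.056), while Tspan5 fell 2.46-fold (-1.30, SE 0.19). Of 37 genes of exocytosis and granule transport 10 rose and 1 fell (median 0.18), and 6 to 10 were called with 1 array left out (6 without empty vector 1, 7 without empty vector 3 or wild type 1), against 13 up and 8 down with the replicate block, 7 up and 0 down on the 6 arrays alone. Snap23, the SNARE of platelet and mast cell secretion, had log2 signals of 10.04, 9.70 and 9.84 with empty vector and 11.48, 11.11 and 11.19 with wild type, a rise of 2.64-fold (1.40, SE 0.12, adjusted p = 0.000961). The groups were well separated. Its partners Stx2 and Stx3 rose 3.42-fold (1.77, SE 0.21) and 2.88-fold (1.53, SE 0.22), and Rab37 3.35-fold (1.74, SE 0.12). Srgn, the proteoglycan core of granules, rose 1.28-fold (0.35, SE 0.058). The Srgn call was lost in a fit on the 6 arrays with the replicate block (adjusted p = 0.074).

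Adhesion genes other than integrins showed 6 rises and 6 falls among 39, and 8 to 11 were called with 1 array left out. Cdh1, E-cadherin, known in marrow from erythroid precursors, rose 13.1-fold (3.71, SE 0.38, adjusted p = 0.00205), and Jam2 2.14-fold (1.10, SE 0.11). Vcan, a matrix proteoglycan of monocytes, fell 19.6-fold (-4.29, SE 0.29, adjusted p = 0.000442). Of 34 genes of complement, coagulation and fibrinolysis 5 rose and 7 fell (35.3%, median -0.07), and 9 to 11 were called with 1 array left out. F2r, the thrombin receptor PAR1, rose 6.79-fold (2.76, SE 0.38) and C5ar2, a receptor for C5a, 6.73-fold (2.75, SE 0.39), while Plaur, the urokinase receptor, fell 3.43-fold (-1.78, SE 0.23) and coagulation factor X, F10, 7.46-fold (-2.90, SE 0.34). The F10 call was lost in a fit on the 6 arrays with the replicate block (adjusted p = 0.0501). Of 54 matrix and growth factor genes 7 rose and 2 fell, and 6 to 8 were called with 1 array left out, against 10 up and 4 down with the replicate block, 4 up and 1 down on the 6 arrays alone, 4 up and 1 down on the 6 arrays with the block. Ltbp1, which stores latent TGF beta, rose 5.81-fold (2.54, SE 0.22) and Pdgfb, a platelet growth factor, 1.49-fold (0.57, SE 0.076).

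Glycolysis genes moved in both directions, and isoforms of 1 step could differ. Of 25 genes 4 rose and 4 fell (32%, median -0.09, median absolute change 0.36), and 6 to 7 were called with 1 array left out. Hk1, the hexokinase of red cells, had log2 signals of 8.52, 8.45 and 8.52 with empty vector and 9.14, 9.17 and 9.34 with wild type, and Hk3, the hexokinase of myeloid cells, 10.21, 10.44 and 9.85 with empty vector and 7.33, 6.84 and 6.50 with wild type. Hk1 rose 1.65-fold (0.72, SE 0.10, adjusted p = 0.00685) and Hk3 fell 9.71-fold (-3.28, SE 0.28, adjusted p = 0.00106), with no overlap in either. Pfkm, whose promoter is shown above, gave 7.79, 7.74 and 7.998 with empty vector and 8.64, 9.05 and 9.17 with wild type, a rise of 2.15-fold (1.11, SE 0.16, adjusted p = 0.00838) with the groups apart. The glucose transporter gene Slc2a3 rose 4.55-fold (2.18, SE 0.22, adjusted p = 0.00212) and Pklr, the pyruvate kinase of red cells and liver, 1.53-fold (0.61, SE 0.059, adjusted p = 0.00173).

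Lists of amino acid transport, nucleotide synthesis and the nucleolus were counted next. Of 28 amino acid and nucleoside transporters 7 rose and 1 fell (median -0.09), and 5 to 9 were called with 1 array left out (5 without empty vector 1, empty vector 3, wild type 2 or wild type 3), against 8 up and 8 down with the replicate block. Slc38a5, a glutamine transporter, rose by 4.91 on the log2 scale (SE 0.69), Slc43a1, a carrier of large neutral amino acids, 3.33-fold (1.73, SE 0.24), and Slc36a1, of the lysosome, fell 2.06-fold (-1.04, SE 0.16). The Slc38a5 and Slc43a1 calls were lost in a fit on the 6 arrays with the replicate block (adjusted p of up to 0.0817). The Slc36a1 call was lost in a fit on the 6 arrays alone (adjusted p = 0.0591). Of 33 nucleotide and one-carbon enzymes 6 fell (median -0.30), and 3 to 6 were called with 1 array left out (3 without empty vector 3), against 1 up and 13 down with the replicate block. Phgdh, the first enzyme of serine synthesis, had log2 signals of 13.38, 13.17 and 13.76 with empty vector and 11.50, 11.79 and 12.24 with wild type. It fell 3.02-fold (-1.59, SE 0.24, adjusted p = 0.00911) with no overlap, Shmt1, which moves a carbon from serine to folate, 2.95-fold (-1.56, SE 0.20) and Gart, of purine synthesis, 1.8-fold (-0.85, SE 0.11). The Shmt1 and Gart calls were lost in a fit on the 6 arrays with the replicate block (adjusted p of up to 0.0738). Of 36 genes of the nucleolus, ribosome assembly and Myc 7 fell and 1 rose (median -0.31), and 3 to 8 were called with 1 array left out (3 without empty vector 3 or wild type 1, 4 without R396Q 1, R396Q 2, empty vector 1 or empty vector 2, 5 without R396Q 3), against 3 up and 18 down with the replicate block, 0 up and 3 down on the 6 arrays alone. Myc, which drives ribosome synthesis, had 12.88, 12.83 and 12.55 with empty vector and 11.66, 11.33 and 11.41 with wild type, a fall of 2.45-fold (-1.29, SE 0.18, adjusted p = 0.00733) without overlap, and Rrp1b fell 1.99-fold (-0.995, SE 0.13).

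Lipid and redox genes moved in both directions. Of 34 sphingolipid and phospholipid enzymes 5 rose and 7 fell (35.3%, median -0.13, median absolute change 0.65), and 7 to 11 were called with 1 array left out (7 without empty vector 1), against 4 up and 2 down on the 6 arrays alone, 3 up and 3 down on the 6 arrays with the block. Ugcg, which makes glucosylceramide, rose 2.02-fold (1.01, SE 0.089, adjusted p = 0.00124), and Sphk1, which makes sphingosine 1-phosphate, 1.59-fold (0.67, SE 0.078). The Sphk1 call was lost in a fit on the 6 arrays with the replicate block (adjusted p = 0.0653). Of 32 genes of fatty acid synthesis, storage and oxidation 3 rose and 3 fell, and 2 to 5 were called with 1 array left out (2 without R396Q 1, R396Q 2 or wild type 2, 3 without R396Q 3, empty vector 1, empty vector 3 or wild type 1), against 6 up and 7 down with the replicate block, 1 up and 1 down on the 6 arrays alone. Lpl, lipoprotein lipase, fell 4.37-fold (-2.13, SE 0.34, adjusted p = 0.0112). Of 30 genes of glutathione and oxidative defense 5 rose and 3 fell, and 5 to 9 were called with 1 array left out (5 without empty vector 1 or wild type 3), against 12 up and 5 down with the replicate block, 2 up and 2 down on the 6 arrays alone. Gss, glutathione synthetase, had log2 signals of 6.93, 6.80 and 6.91 with empty vector and 7.52, 7.37 and 7.45 with wild type, a rise of 1.49-fold (0.57, SE 0.082, adjusted p = 0.00746) with the groups apart. Among the glutathione transferases Gstm5 rose 2.76-fold (1.47, SE 0.21) and Gstm1 fell 4.93-fold (-2.30, SE 0.39). The Gstm1 call was lost in a fit on the 6 arrays with the replicate block (adjusted p = 0.0623). Gstm genes are close paralogs, so their probes may share signal. Of 22 cholesterol genes 0 were called by limma with or without the block (unadjusted p under 0.05 in 0 without it and 7 with it), around a median change of 0.01, and of 29 genes of mitochondrial respiration 1 rose and 1 fell (2 up and 3 down with the replicate block, 1 and 1 on the 6 arrays alone, 1 and 0 on these with the block). Cox6b2, a subunit of cytochrome c oxidase, rose 7.13-fold (2.83, SE 0.36).

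Among inflammatory sensors and their pathways more genes fell than rose. Of 27 genes of NLR proteins, inflammasomes and cell death 7 fell and 1 rose (median -0.40), and 5 to 10 were called with 1 array left out (5 without empty vector 3 or wild type 2), against 3 up and 10 down with the replicate block, 0 up and 4 down on the 6 arrays alone, 0 up and 5 down on the 6 arrays with the block. Nlrp1a, an inflammasome sensor, fell 3.0-fold (-1.58, SE 0.13, adjusted p = 0.000845), and Card9, which carries signals from fungal receptors, 2.92-fold (-1.55, SE 0.19, adjusted p = 0.00434). Of 33 genes of the TNF superfamily and its receptors 6 fell and 1 rose, and 4 to 7 were called with 1 array left out (4 without empty vector 1 or empty vector 3). Tnf itself had log2 signals of 8.72, 8.75 and 8.92 with empty vector and 7.25, 6.82 and 7.45 with wild type, and fell 3.09-fold (-1.63, SE 0.21, adjusted p = 0.00478) with no overlap, and its receptor gene Tnfrsf1a 4.67-fold (-2.22, SE 0.23). The Tnfrsf1a call was lost in a fit on the 6 arrays with the replicate block (adjusted p = 0.0587). Tnfrsf18, a costimulatory receptor, rose 7.01-fold (2.81, SE 0.30). Of 20 genes of the NF-kB pathway 5 fell and 1 rose, and 3 to 5 were called with 1 array left out (3 without empty vector 1, wild type 2 or wild type 3), against 0 up and 2 down on the 6 arrays alone. Rel, an NF-kB subunit, fell 3.91-fold (-1.97, SE 0.24, adjusted p = 0.00382) and Map3k14, the kinase of the alternative pathway, 1.39-fold (-0.48, SE 0.044). Of 38 lysosomal genes 5 fell and 3 rose, and 2 to 13 were called with 1 array left out (2 without empty vector 1, 3 without R396Q 2, empty vector 3, wild type 1, wild type 2 or wild type 3, 4 without R396Q 1 or R396Q 3, 13 without empty vector 2), against 6 up and 15 down with the replicate block, 1 up and 1 down on the 6 arrays alone. Cd68, a membrane protein of macrophage lysosomes, fell 9.25-fold (-3.21, SE 0.38). The monocyte and neutrophil marker means were lower beside these lists, by the ranges given above, and their part was not tested.

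Sugar-modifying and protein-processing enzymes also changed. Of 47 glycosyltransferase and sialic acid genes 7 rose and 4 fell, and 8 to 12 were called with 1 array left out, against 11 up and 6 down with the replicate block, 1 up and 3 down on the 6 arrays with the block. St3gal4, which caps sugars with sialic acid, rose 2.71-fold (1.44, SE 0.18, adjusted p = 0.00399), while Galnt3, which starts O-linked sugar chains, and B3gnt5, which extends glycolipids, fell 4.64-fold (-2.21, SE 0.29) and 10.4-fold (-3.38, SE 0.18). Of 45 proteases and their inhibitors 4 rose and 4 fell, and 3 to 8 were called with 1 array left out (3 without empty vector 1, 5 without R396Q 1, R396Q 2, R396Q 3, wild type 1 or wild type 3), against 3 up and 0 down on the 6 arrays alone, 3 up and 1 down on the 6 arrays with the block. Furin, which cleaves precursor proteins in the Golgi, had log2 signals of 7.84, 7.35 and 8.21 with empty vector and 10.62, 9.92 and 10.53 with wild type. The wild type arrays lay above and the rise was 5.89-fold (2.56, SE 0.26, adjusted p = 0.00208), and Cpd, a carboxypeptidase that acts after furin, rose 2.64-fold (1.40, SE 0.16).

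**Figure D5:**
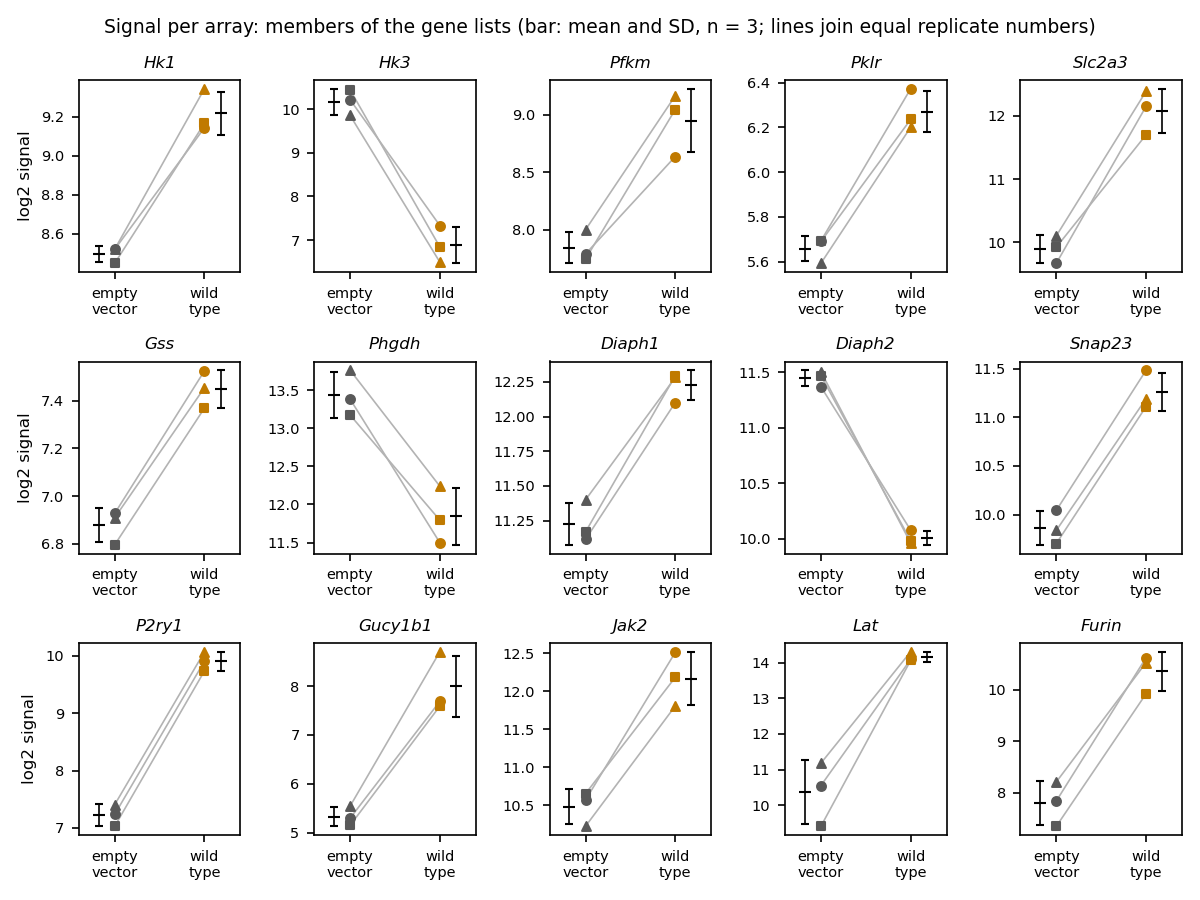
Log2 signal per array of 15 members of the gene lists, with empty vector in grey, wild type in orange, lines between arrays of the same replicate number, and the mean and SD of 3 arrays beside the points. The groups do not overlap in any panel, and related genes such as Hk1 and Hk3 or Diaph1 and Diaph2 move in opposite directions. Each panel has its own axis, which does not start at 0.

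Gene regulators and genes of the Bcl2 family were also counted. Of 20 genes listed as Kruppel-like factors, Sp4 of the related Sp family among them, 3 rose and 1 fell, and 3 to 4 were called with 1 array left out. Besides Klf1, Sp4 rose 1.79-fold (0.84, SE 0.097), while Klf4, a factor of monocytes, fell 3.16-fold (-1.66, SE 0.20, adjusted p = 0.00378). Klf7 also rose, and its call was lost in 8 settings, the 6 arrays alone among them (adjusted p of up to 0.106). Of 37 genes of the Bcl2 family and caspases 2 rose and 1 fell, a share (8.11%) near that of all genes, and 2 to 3 were called with 1 array left out, against 3 up and 4 down with the replicate block. Bcl2l11, which encodes the death-promoting protein Bim, fell 1.71-fold (-0.78, SE 0.092), and Bcl2l13, a mitochondrial member of the family, rose 1.69-fold (0.76, SE 0.12). Of 30 regulators of DNA and histone methylation 1 rose (3.33%, and 3 up and 4 down with the replicate block, 1 and 0 on the 6 arrays alone, 1 and 0 on these with the block). Of 18 histones 1 rose and 1 fell (3 up and 1 down with the replicate block, 0 and 1 on the 6 arrays alone, 0 and 1 on these with the block). Macroh2a1, a histone variant of silent chromatin, fell 2.81-fold (-1.49, SE 0.16, adjusted p = 0.0028). Of 17 genes of MHC class I and antigen processing 0 were called by limma without the block (unadjusted p under 0.05 in 2) or on the 6 arrays alone, 7 with the block, 3 up and 4 down, and 3 on the 6 arrays with the block. Of 33 clock and hypoxia genes 3 rose and 3 fell, and 3 to 7 were called with 1 array left out (3 without empty vector 3 or wild type 1), against 1 up and 1 down on the 6 arrays alone, 1 up and 0 down on the 6 arrays with the block. Ddit4, an inhibitor of mTOR, rose 1.97-fold (0.98, SE 0.15). Of 27 proteasome and ubiquitin genes of red cells 2 rose, and 2 to 4 were called with 1 array left out (4 without wild type 2), against 6 up and 2 down with the replicate block, 5 up and 0 down on the 6 arrays with the block. Usp32, a deubiquitinase, rose 2.49-fold (1.31, SE 0.19), and Fbxo9, an F-box protein, 1.89-fold (0.92, SE 0.082).

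Transporters of metal ions and genes of developmental pathways were also counted. Of 24 metal ion transporters 3 rose and 3 fell (25%), and 3 to 6 were called with 1 array left out (3 without wild type 1), against 3 up and 7 down with the replicate block, 1 up and 1 down on the 6 arrays alone, 1 up and 2 down on the 6 arrays with the block. Slc41a3, of magnesium transport, rose 3.66-fold (1.87, SE 0.24), and the zinc transporter gene Slc30a4 fell 3.84-fold (-1.94, SE 0.25). Of 39 genes of the Wnt, Notch and hedgehog pathways 3 rose and 2 fell, and 2 to 4 were called with 1 array left out (2 without R396Q 1, R396Q 2, R396Q 3, empty vector 1, empty vector 2, empty vector 3 or wild type 3, 3 without wild type 2), against 3 up and 5 down with the replicate block, 1 up and 0 down on the 6 arrays alone, 1 up and 1 down on the 6 arrays with the block. Lrp5, a coreceptor for Wnt, fell 3.04-fold (-1.60, SE 0.25). Of 35 semaphorin, plexin, ephrin and neuropilin genes 2 rose and 2 fell, and 3 to 8 were called with 1 array left out (8 without wild type 2), against 1 up and 0 down on the 6 arrays alone, 0 on the 6 arrays with the block. Plxnb2 and Plxnd1, receptors for semaphorins, fell 4.14-fold (-2.05, SE 0.36) and 2.87-fold (-1.52, SE 0.23). The Slc30a4 call was lost in a fit on the 6 arrays with the replicate block (adjusted p = 0.072). The Lrp5 call was lost in a fit on the 6 arrays alone (adjusted p = 0.0535). The Plxnb2 and Plxnd1 calls were lost in the fits on the 6 arrays with and without the replicate block (adjusted p of up to 0.0716).

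Autophagy genes showed 3 rises and 4 falls among 37, and 2 to 6 were called with 1 array left out (2 without R396Q 2, empty vector 1, wild type 1 or wild type 3, 3 without R396Q 3, 4 without R396Q 1, empty vector 3 or wild type 2), against 11 up and 8 down with the replicate block, 1 up and 1 down on the 6 arrays alone. Of 32 RNA-binding and microRNA regulators 3 rose and 3 fell, and 2 to 6 were called with 1 array left out (2 without empty vector 3, 3 without R396Q 2 or wild type 3), against 5 up and 6 down with the replicate block, 1 up and 1 down on the 6 arrays alone. Qk, a splicing regulator, fell 1.34-fold (-0.42, SE 0.057). Of 32 translation factors and tRNA synthetases 1 rose and 2 fell, a share (9.38%) near that of all genes. With 1 array left out 1 to 3 were called (1 without R396Q 1, R396Q 2, R396Q 3, empty vector 1 or wild type 1), against 2 up and 6 down with the replicate block, 0 up and 1 down on the 6 arrays alone. Eif4e3, a cap-binding protein, fell 2.4-fold (-1.26, SE 0.16, adjusted p = 0.00506), with log2 signals of 9.66, 9.01 and 9.56 with empty vector and 8.29, 8.07 and 8.09 with wild type. The groups were apart. Among 24 AP-1, Maf and early response factors 1 rose and 1 fell (1 up and 2 down with the replicate block, 0 and 0 on the 6 arrays alone, 0 and 0 on these with the block), among 24 nuclear receptors 1 rose and 2 fell (1 up and 3 down with the replicate block, 0 and 1 on the 6 arrays alone, 0 and 1 on these with the block), and among 17 MHC class II and antigen presentation genes 2 fell (1 up and 3 down with the replicate block, 0 and 1 on the 6 arrays alone, 0 and 1 on these with the block). No call in these 3 lists was kept without each of the 9 arrays in turn. The Qk call was lost in a fit on the 6 arrays with the replicate block and with the mean of a symbol's clusters (adjusted p of up to 0.0836).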

How the data were processed

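The deposited log2 values come, per the submitters' processing notes, from the authors' use of RMA (robust multiarray average) in Expression Console by Affymetrix, with no version given. The array annotation gave 1 symbol to 18992 of 21072 clusters, several to 1390 and none to 690. Genes and lists use 1 symbol and, of several clusters, the brightest. The test was limma 3.58.1 (R 4.3.3) on 9 arrays with 1 mean per group, 2-sided, adjusted over all clusters. A check on simulated data used independent noise for each array, so it could not show how the test behaves where arrays deviate together. Arrays of the same replicate number in the 2 groups deviated together (r of 0.627, 0.451 and 0.641, others -0.497 to -0.165), so a fit with that number as a block, and fits on only the 6 arrays with and without it, are given where they move a count by over 1.5 times. What the number marks is not stated. Identical values on both arrays of a number occurred in 2551, 2737 and 2482 clusters.

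Named genes were Gata2, then called, non-overlapping genes: the 12 rises and 12 falls of smallest p from 0.58 to 3 on the log2 scale, the 10 largest rises and falls among bright genes, 8 of each below 0.58, and up to 5 called members per list. The text prints part of them, with marker genes beside them. Members, lists and rules were chosen with earlier results of these data known. Of 1678 list entries 1506 were measured, 84 fell in clusters with several symbols, and 88 were not analysed here. Of 148 marker entries 132 were measured. Precision is limited by 3 arrays a group. The results of 1 list are in the totals and not reported here.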

Additional observations from a re-analysis of the deposited data

How the results depend on the processing

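The 1894 calls became 3667 (1685 up, 1982 down) with the replicate block, 1848 of the 1894 among them, and 1026 (528 up, 498 down) in a fit on only the 6 arrays of the 2 groups. Leaving out 1 array gave 1285 to 1724 calls, 668 to 867 up and 603 to 997 down. Of the list members, 563 were called with the block, 189 with only the 6 arrays and 211 to 290 with 1 array left out, against 335. Of 238 calls of named genes, 138 were kept in every setting run, 186 without any 1 array, and 0 reversed. The block lost 1 of them, the 6 arrays alone 53 and the 6 arrays with the block 81, while trend and robust options, array weights, median subtraction, quantile normalization, leaving out the dimmest 30%, leaving out the dimmest 50% (200 measured), asking for at least 6 distinct values and the mean of a symbol's clusters lost 1 to 11. Signal near background limits the clusters in the dimmest quartile, of which 32 rose and 17 fell.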
